A study of Mus musculus with 10 samples.

Results

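The genes described here are the receptors and binding proteins of the insulin-like growth factors (IGFs): Igf1r, Igf2r, Igfbp2, Igfbp3, Igfbp4, Igfbp5, Igfbp6 and Igfbp7. They were taken by name from a list of the family, as those present in the expression table, and are 8 of its 11228 genes. The study silenced the muscle lncRNA Charme (a long RNA that encodes no protein) in mouse myotubes differentiated in vitro for 2 days. Myotubes are muscle cells with many nuclei, formed by fusion of myoblasts. Each RNA-seq group had 2 libraries, named A and B and called biological replicates by the submitters. The GAP-scr group received the control gapmer, and the GAP-2 and GAP-2/3 groups received gapmers against Charme. A gapmer is a short antisense oligonucleotide that directs RNase H to cut its target RNA. All 3 groups carried a gapmer, and both arms were set against the same GAP-scr libraries. The name GAP-2/3 may mean that the GAP-2 gapmer was part of that set. No untreated cells were analysed here, the labels name neither cell line nor animal of origin, and Charme itself is not analysed here, so the groups rest on their labels. Separate chromatin from such myotubes was pulled down with Charme probes (ChIRP-seq), and the authors' peak list from it was used for position only.

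IGF1 and IGF2 act through the type 1 receptor, Igf1r, a tyrosine kinase that signals through insulin receptor substrates to PI3 kinase and Akt. The type 2 receptor, Igf2r, is the cation-independent mannose 6-phosphate receptor: it carries lysosomal enzymes and takes IGF2 into the cell for degradation, without a kinase of its own. IGF binding proteins hold secreted IGFs outside the cell, and proteases that cut them release the ligand. In cultured muscle cells IGF2 is an autocrine factor of differentiation, and IGFBP5 is the binding protein best known from differentiating myoblasts.

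The values are FPKM, fragment numbers corrected for the length of the transcript and the size of the library, so levels may be compared between genes. Read depth is not known from such values, and no counting error can be given. Tests were made with limma on log2(FPKM + 1), so a log2 change below is on that scale and understates the change of low genes; a gene is called where the Benjamini-Hochberg adjusted p over 10993 tested genes is under 0.05. With 2 libraries a group, each p-value rests on the spread seen between libraries here. That spread is the gene's own, drawn by limma toward the spread of other genes at like levels. Where groups are said to overlap or not, this describes 2 libraries a group. The share of all genes whose groups did not overlap was not counted. Median FPKM per library was between 11.9 and 13.3, and replicates correlated at 0.989 to 0.995 on the log2 scale. GAP-scr A and GAP-2 A held 3387 and 4090 FPKM of Rn45s, a ribosomal RNA precursor, against 93.2 to 176 in the other 4 libraries. Of the myotube markers, 8 of 8 were in the table, with summed levels of 11670 to 12450 FPKM for GAP-scr, 6971 to 7161 for GAP-2 and 7572 to 7977 for GAP-2/3. Markers of undifferentiated or cycling myoblasts (6 of 8 in the table, Pax7 and Msc absent) summed to 86.2 to 91.5 FPKM, 113 to 121 and 156 to 158. Fibroblast markers (7 of 10 in the table, Thy1, Lum and Fap absent) summed to 2105 to 2124, 1897 to 2221 and 1418 to 1646 FPKM. Of these 7, 1 was called higher and 1 lower in GAP-2, and 2 higher and 2 lower in GAP-2/3, so the sum hides opposite changes. Col1a1 was at 778 and 808 FPKM in GAP-scr and 385 and 456 in GAP-2/3, while Dcn was at 52.6 and 37.2, then 123 and 128. Endothelial markers were absent from the table (0 of 5), 1 of 6 macrophage markers was in it (Cd68, at 0.374 to 0.917, 2.43 to 3.54 and 0.834 to 0.962 FPKM), and 2 of 5 adipocyte markers summed to 2.05 to 3.05 FPKM over all libraries. Of the myotube markers 7 of 8 were called lower in GAP-2 and 4 of 8 in GAP-2/3, beside 4.18% and 11.3% of all tested genes. Of the myoblast markers 2 of 6 and 5 of 6 were called higher, beside 10.4% and 28.0% of all tested genes. The 2 called in GAP-2 were Myf5 and Id1. Id3 averaged 33.1 FPKM in GAP-2 and 27.6 in GAP-scr. The cycling markers Mki67, Top2a and Ccnb1 averaged 1.55, 7.67 and 2.99 FPKM in GAP-2 and 2.06, 7.75 and 3.69 in GAP-scr, without a call. These marker levels moved with the gapmer groups, and their part in the results below was not tested. In bulk RNA, fewer cells of a type and less RNA per cell cannot be told apart.

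Igfbp5 had the highest level of the 8 genes in each library, at 129 to 375 FPKM, above 94.0% to 98.0% of the genes in the table. Igfbp3 had the lowest, at 2.64 to 4.79 FPKM, above 13.6% to 25.2% of genes. In GAP-scr myotubes the order was Igfbp5, Igfbp2, Igfbp4, Igfbp7, Igf2r, Igfbp6, Igf1r and Igfbp3. Igfbp4 and Igfbp7 overlapped in that order, as did Igf2r and Igfbp6, and the other neighbours did not. In GAP-2 the order was Igfbp5, Igfbp2, Igfbp4, Igfbp6, Igfbp7, Igf2r, Igf1r and Igfbp3, and only Igfbp6 and Igfbp7 overlapped. GAP-2/3 libraries did not separate the 5 higher binding proteins: Igfbp5, Igfbp4, Igfbp2, Igfbp7 and Igfbp6 each overlapped the next, and Igf2r, Igf1r and Igfbp3 followed without overlap.

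**Figure D1:**
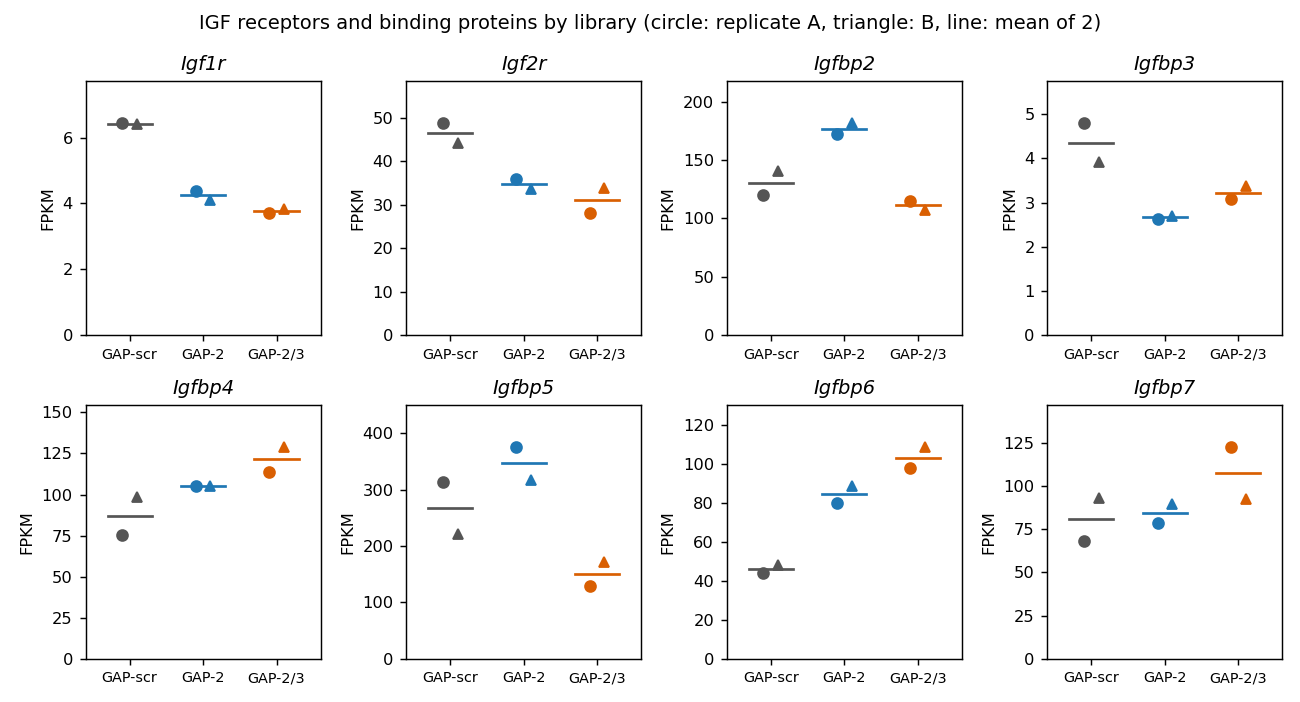
FPKM of the 8 genes in each of the 6 libraries, on a linear axis from 0 in a panel per gene, with circles for replicate A, triangles for B and a line at the mean of each group. Both receptors are highest in the GAP-scr libraries, Igfbp6 is lowest there, and Igfbp2 and Igfbp5 are highest in the GAP-2 libraries.

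Against GAP-scr, 5 of the 8 genes were called in each arm, 2 higher and 3 lower, but they were not the same 5. In GAP-2, Igf1r, Igf2r and Igfbp3 were lower and Igfbp2 and Igfbp6 higher. In GAP-2/3, Igf1r, Igf2r and Igfbp5 were lower and Igfbp4 and Igfbp6 higher. Of all tested genes, 14.6% were called in GAP-2 (10.4% higher and 4.18% lower) and 39.3% in GAP-2/3 (28.0% higher and 11.3% lower). Set against GAP-scr, the mean of both arms also called 5 of the 8, Igfbp4 and Igfbp6 higher and Igf1r, Igf2r and Igfbp3 lower, beside 34.1% of all genes (24.5% higher and 9.57% lower). The direct comparison of GAP-2/3 with GAP-2 called 2 of the 8, Igfbp2 and Igfbp5, both lower, beside 10.1% of all genes (6.50% higher and 3.65% lower). Without GAP-2 A or without GAP-2 B, 1 of the 8, Igfbp6, was called in GAP-2, and without GAP-2/3 A, 2 of the 8 (Igf1r and Igfbp6) were called in GAP-2/3 and 0 in the comparison of the arms. Over all genes, the median log2 change was 0.07 and 0.13 in GAP-2 and GAP-2/3 and 0.10 in the mean of both arms. Under scaling of each library to one median, the share of higher genes among those called moved from 71.3% to 52.2% in GAP-2, from 71.3% to 51.9% in GAP-2/3, from 71.9% to 51% in the mean of both arms, and from 64% to 52.3% between the arms. No log2 change of the 8 genes turned its direction under that scaling or under quantile normalization.

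**Figure D2:**
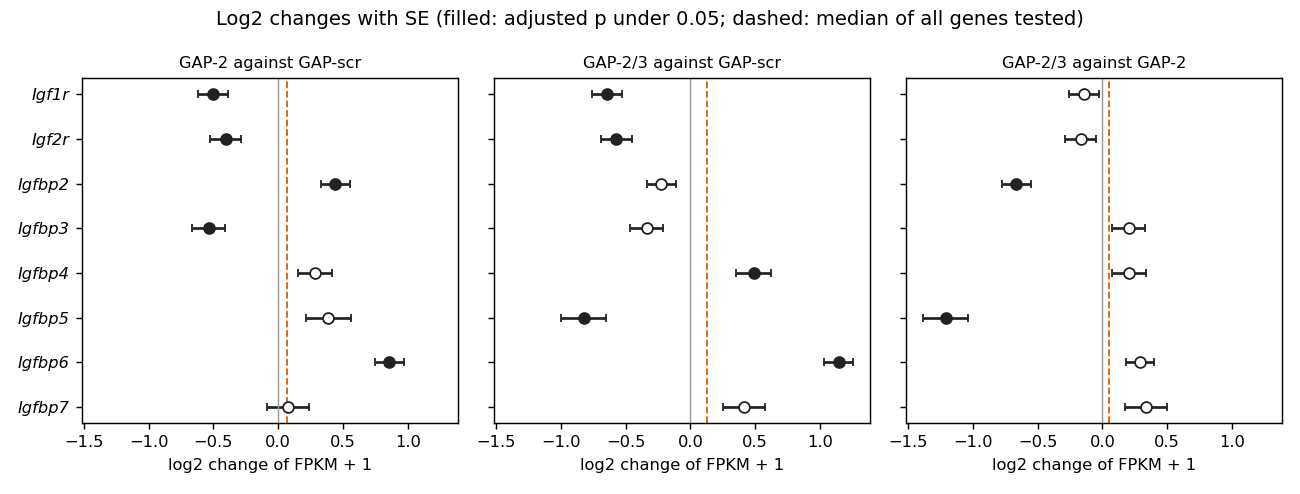
Log2 change of FPKM + 1 with its standard error for the 8 genes in GAP-2 and GAP-2/3, each against GAP-scr, and between the arms, with filled points where the adjusted p is under 0.05 and a dashed line at the median of all genes. Igf1r and Igf2r lie left of 0 and Igfbp6 right of it in both arms, while Igfbp2 and Igfbp5 lie on opposite sides in the 2 arms.

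Both receptors fell in both arms. Igf1r was at 6.43 and 6.41 FPKM in GAP-scr A and B, 4.38 and 4.12 in GAP-2, and 3.70 and 3.82 in GAP-2/3. Each GAP-scr library lay above all 4 treated libraries, and the 2 arms did not overlap either. The log2 change of Igf1r was -0.50 ± 0.12 (SE) in GAP-2 (limma adjusted p = 0.0165) and -0.64 ± 0.12 in GAP-2/3 (limma adjusted p = 0.00185). Less the median change of all genes, these were -0.57 and -0.77. The arms themselves differed by -0.14 ± 0.12 (limma adjusted p = 0.487), which was not called. The GAP-2 call was lost without GAP-2 A (limma adjusted p = 0.0896), without GAP-2 B (0.173) and without GAP-scr A and GAP-2 A together (0.0507).

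The level of Igf2r was 6.87 to 8.83 times that of Igf1r in FPKM in the 6 libraries. Its values were 48.7 and 44.1 FPKM in GAP-scr, 36.0 and 33.5 in GAP-2, and 28.2 and 33.7 in GAP-2/3. GAP-scr lay above every treated library, and the 2 arms overlapped. The log2 change was -0.41 ± 0.12 in GAP-2 (limma adjusted p = 0.0430) and -0.57 ± 0.12 in GAP-2/3 (limma adjusted p = 0.00391), and the arms differed by -0.17 ± 0.12 (limma adjusted p = 0.414). The GAP-2 call was lost in 8 of 17 alternatives, with limma adjusted p up to 0.301 (without GAP-2 B), and also without GAP-scr A (0.0846), without GAP-2 A (0.137), and without GAP-2/3 A or B (0.0581 and 0.0582). In GAP-2/3 it was lost without GAP-2/3 A (limma adjusted p = 0.0609). Airn, a non-coding RNA transcribed antisense from within the Igf2r gene, overlaps its span. It was at 6.82 and 5.98 FPKM in GAP-scr, 5.47 and 7.20 in GAP-2 and 5.07 and 4.52 in GAP-2/3, with no call (limma adjusted p = 0.934 and 0.0670). The library kit was stranded, but no source used here says whether counting used strand, so reads of Airn and Igf2r may not have been told apart.

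The start regions of the receptors are shown because both genes fell together. In the RefSeq annotation of GRCm38.p6, Igf1r lies at chr7:67952257-68233668 on the plus strand and Igf2r at chr17:12682406-12769706 on the minus strand. Each sequence runs 5′ to 3′ along its gene from 250 bases before the start to 50 bases after it, at chr7:67952007-67952306 and chr17:12769657-12769956. Capitals mark exact matches on either strand to 4 short words. The TATA box was searched for as TATAAA. An E-box known from bHLH zipper factors was searched for as CACGTG. The word for a GC box, to which Sp factors bind, was CCCGCCC. For AP-1 the word was TGACTCA.
Igf1r: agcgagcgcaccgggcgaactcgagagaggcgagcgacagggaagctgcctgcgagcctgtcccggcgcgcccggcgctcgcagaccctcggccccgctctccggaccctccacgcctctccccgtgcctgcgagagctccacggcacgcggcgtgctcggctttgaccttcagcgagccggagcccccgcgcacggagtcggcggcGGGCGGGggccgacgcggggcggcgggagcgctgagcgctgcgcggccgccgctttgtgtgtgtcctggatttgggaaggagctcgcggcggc
Igf2r: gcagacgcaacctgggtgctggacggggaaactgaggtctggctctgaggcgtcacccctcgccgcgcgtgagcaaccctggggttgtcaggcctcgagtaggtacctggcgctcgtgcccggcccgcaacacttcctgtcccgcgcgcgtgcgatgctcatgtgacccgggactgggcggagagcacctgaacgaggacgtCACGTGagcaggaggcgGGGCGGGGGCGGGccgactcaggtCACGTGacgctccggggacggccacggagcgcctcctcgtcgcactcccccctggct
G and C made up 76.0% of the Igf1r sequence and 70.7% of that of Igf2r, beside a median of 52.7% over 32851 RefSeq promoters of that length. CACGTG occurred in the Igf2r sequence at 48 and 7 bases before the start, and not in that of Igf1r. It occurred in 7.15% of all promoters, and in 0.594% more than once. Both copies in Igf2r lay within the longer word TCACGTGA, searched for after the sequence was seen, which 0.974% of promoters held and 0.0578% held more than once. CCCGCCC, held by 25.6% of promoters, was found on the opposite strand 43 bases before the start of Igf1r and 31 and 25 bases before that of Igf2r, where the 2 copies overlap by 1 base. These are matches of letters, not measured sites. GTAAACA, a forkhead word held by 3.65% of promoters, and CAGCTG, an E-box word of myogenic factors held by 16.3%, occurred in 0 of the 9 promoters of the 8 genes. The general E-box word CANNTG, where N is any base, occurred in 7 of the 9, beside 72.3% of all promoters.

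Of the 6 binding proteins, Igfbp6 changed most against GAP-scr in both arms. It encodes a binding protein known for its preference for IGF2. Igfbp6 was at 44.4 and 48.1 FPKM in GAP-scr, 80.0 and 89.1 in GAP-2, and 98.2 and 109 in GAP-2/3. The 3 groups were separate, with GAP-2/3 the highest. The log2 change was 0.86 ± 0.11 in GAP-2 (limma adjusted p = 0.000721) and 1.15 ± 0.11 in GAP-2/3 (limma adjusted p = 3.06e-05). Both calls were kept in every alternative run. Between the arms the difference of 0.29 ± 0.11 was not called (limma adjusted p = 0.124). The gene lies at chr15:102144186-102149512 on the plus strand of GRCm38.p6.

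Igfbp4, whose product inhibits IGF action until it is cleaved, rose in GAP-2/3. It was at 75.4 and 98.5 FPKM in GAP-scr, 105.2 and 105.3 in GAP-2 and 114 and 129 in GAP-2/3, again without overlap between groups. The log2 change was 0.29 ± 0.13 in GAP-2 (limma adjusted p = 0.161) and 0.49 ± 0.13 in GAP-2/3 (limma adjusted p = 0.0136). In GAP-2 the change ran from 0.0948, without GAP-scr A, to 0.48, without GAP-scr B, where it was called (limma adjusted p = 0.0198). The call in GAP-2/3 was lost under scaling to one median (limma adjusted p = 0.0622), without GAP-scr A (log2 change 0.30, limma adjusted p = 0.0576), without GAP-2/3 A or B (0.0625 and 0.113), and without both Rn45s-rich libraries (0.122). In the mean of both arms its change was 0.39 ± 0.11 (limma adjusted p = 0.0231), a call lost in 7 of 16 alternatives with limma adjusted p up to 0.324, among them without GAP-scr A, where the change was 0.20 (limma adjusted p = 0.164). Igfbp4 lies at chr11:99040005-99052655 on the plus strand.

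Igfbp3, the main carrier of IGFs in blood and a low transcript here, fell in GAP-2. It was at 4.79 and 3.91 FPKM in GAP-scr, 2.64 and 2.71 in GAP-2 and 3.09 and 3.37 in GAP-2/3. GAP-2 had the lowest libraries, and no group overlapped another. The log2 change was -0.54 ± 0.13 in GAP-2 (limma adjusted p = 0.0184) and -0.34 ± 0.13 in GAP-2/3 (limma adjusted p = 0.0556), and the arms differed by 0.20 ± 0.13 (limma adjusted p = 0.350). Igfbp3 was called in GAP-2/3 under scaling to one median (limma adjusted p = 0.0212) and quantile normalization (0.00929). The GAP-2 call was lost without GAP-2 A (0.109), without GAP-2 B (0.108) and without both Rn45s-rich libraries (0.154). In the mean of both arms the change was -0.44 ± 0.11 (limma adjusted p = 0.0119), a call lost without GAP-scr A, without GAP-2/3 A and without both Rn45s-rich libraries (adjusted p up to 0.135). Igfbp3 lies at chr11:7206086-7215498 on the minus strand.

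Igfbp2 and Igfbp5 were the members that differed between the gapmer arms. Igfbp5 was at 314 and 222 FPKM in GAP-scr A and B, 375 and 317 in GAP-2, and 129 and 171 in GAP-2/3. GAP-2/3 was lowest without overlap, while GAP-scr A, at 313.7 FPKM, came within a few FPKM of GAP-2 B, at 317.3. The log2 change was -0.82 ± 0.17 in GAP-2/3 (limma adjusted p = 0.00402) and 0.39 ± 0.17 in GAP-2 (limma adjusted p = 0.150), which was not called. Between the arms it was -1.21 ± 0.17 (limma adjusted p = 0.00129).

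Igfbp2 was at 120 and 140 FPKM in GAP-scr, 172 and 181 in GAP-2, and 115 and 107 in GAP-2/3. It rose in GAP-2, by 0.44 ± 0.11 (limma adjusted p = 0.0240), and its change in GAP-2/3 was -0.22 ± 0.11 (limma adjusted p = 0.130). The 3 groups did not overlap, with GAP-2 highest and GAP-2/3 lowest. The difference between the arms was -0.67 ± 0.11 (limma adjusted p = 0.00377). In the mean of both arms the changes of Igfbp2 and Igfbp5 were 0.11 ± 0.10 and -0.22 ± 0.15, neither of them called (limma adjusted p = 0.403 and 0.274).

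Several of these calls were lost or gained without 1 library, in fits that also have fewer libraries to estimate the spread from. The GAP-2 change of Igfbp2 stayed at 0.44 without GAP-2/3 A or B, libraries outside that comparison. Numbers of genes called over all genes, given at the end, moved as well. Without GAP-2/3 A, Igfbp5 lost its call in GAP-2/3 (log2 change -0.62, limma adjusted p = 0.0917) and between the arms (-1.01, limma adjusted p = 0.0786), and Igfbp2 lost its call between the arms (-0.72, limma adjusted p = 0.0560). Igfbp2 lost it also without GAP-2/3 B (-0.61, limma adjusted p = 0.0778). Its GAP-2 call was lost under scaling to one median (limma adjusted p = 0.0738), without GAP-2 A or B (0.105 and 0.212), without GAP-2/3 A or B (0.0559 and 0.0563), without both Rn45s-rich libraries (0.153) and with only the groups compared (0.0562). Conversely, Igfbp5 was called higher in GAP-2 without GAP-scr A (0.64, limma adjusted p = 0.0135) and without both Rn45s-rich libraries (0.52, limma adjusted p = 0.0278), while without GAP-scr B its change was 0.14 (limma adjusted p = 0.594). Igfbp2 was called lower in GAP-2/3 under quantile normalization (-0.32, limma adjusted p = 0.0364) and without GAP-scr A (-0.335, limma adjusted p = 0.0297), and its change there was -0.11 without GAP-scr B. In the mean of both arms Igfbp5 was called lower without GAP-scr B (-0.47, limma adjusted p = 0.0308).

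Igfbp2 and Igfbp5 are neighbours on chromosome 1 of GRCm38.p6, at chr1:72824480-72852474 on the plus strand and chr1:72858065-72874865 on the minus strand. The genes converge, with 5590 bases between their ends. Their start regions are shown because these neighbours both differed between the arms, cut and marked as for the receptors, at chr1:72824230-72824529 and chr1:72874816-72875115.
Igfbp2: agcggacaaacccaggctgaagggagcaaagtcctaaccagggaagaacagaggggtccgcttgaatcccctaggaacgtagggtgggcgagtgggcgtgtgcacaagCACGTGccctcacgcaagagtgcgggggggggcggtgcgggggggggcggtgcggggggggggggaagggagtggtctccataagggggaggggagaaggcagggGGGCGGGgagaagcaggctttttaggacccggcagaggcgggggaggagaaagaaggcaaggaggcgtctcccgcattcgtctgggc
Igfbp5: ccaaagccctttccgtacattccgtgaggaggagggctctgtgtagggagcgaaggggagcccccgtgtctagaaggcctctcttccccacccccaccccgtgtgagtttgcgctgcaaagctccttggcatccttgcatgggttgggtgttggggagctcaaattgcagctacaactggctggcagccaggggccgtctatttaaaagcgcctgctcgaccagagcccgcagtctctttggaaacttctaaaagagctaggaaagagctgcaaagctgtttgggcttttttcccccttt
G and C made up 67.0% of the Igfbp2 sequence and 56.3% of the Igfbp5 sequence. CACGTG stood 142 bases and CCCGCCC, on the opposite strand, 37 bases before the start of Igfbp2, while the Igfbp5 sequence held none of the 4 marked words. RefSeq holds a second Igfbp2 promoter, at chr1:72825137-72825436 with 57.3% G and C, which is not shown. In it TGACTCA, a word held by 5.20% of promoters, lay on the opposite strand 39 bases before the start, and neither word of the first promoter occurred. Within 500 kb of the pair, 3 other genes were in the table, a set chosen after the values were seen. Between the arms 0 of the 3 were called: the log2 differences were -0.01 for Xrcc5, 0.30 for Smarcal1 and -0.05 for Rpl37a (limma adjusted p = 0.971, 0.143 and 0.859). Xrcc5, which encodes the Ku80 DNA repair protein, rose in both arms against GAP-scr, by 0.58 in GAP-2 (limma adjusted p = 0.00953) and 0.57 in GAP-2/3 (limma adjusted p = 0.00403).

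Igfbp7, whose product binds IGFs with low affinity, was the member with no call in any of the 4 comparisons. It was at 68.3 and 93.2 FPKM in GAP-scr, 78.7 and 89.7 in GAP-2, and 122 and 92.6 in GAP-2/3. The range of GAP-scr overlapped those of both arms. The log2 change was 0.07 ± 0.16 in GAP-2 (limma adjusted p = 0.787) and 0.41 ± 0.16 in GAP-2/3 (limma adjusted p = 0.0639), and was called in GAP-2/3 without GAP-scr B (0.63, limma adjusted p = 0.00818) and with the letter as a replicate block (0.0220). With 1 library left out the GAP-2/3 change of Igfbp7 ran from 0.19, without GAP-scr A, to that 0.63, with limma adjusted p up to 0.462. In the mean of both arms Igfbp7 was called without GAP-scr B (0.46, limma adjusted p = 0.0299). Its span at chr5:77349240-77408045, on the minus strand, overlaps that of Polr2b, a subunit of RNA polymerase II. Polr2b, at 37.2 and 34.6 FPKM in GAP-scr, rose in GAP-2/3 by 0.44 ± 0.10 (limma adjusted p = 0.00776), and reads of the 2 genes may not have been told apart.

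The summed level of the 6 binding proteins was 627 and 606 FPKM in GAP-scr, 814 and 786 in GAP-2, and 582 and 612 in GAP-2/3. GAP-2 stood apart, and GAP-scr and GAP-2/3 overlapped. Igfbp5 made up 43.3% ± 9.51 (SD, n = 2) of the sum in GAP-scr, then 43.3% ± 4.03 and 25.1% ± 4.11 in GAP-2 and GAP-2/3. Igfbp6 made up 7.51% ± 0.606, 10.6% ± 1.06 and 17.3% ± 0.649 in the same order, without overlap. The share of Igfbp2 was 21.2% ± 2.82, 22.1% ± 1.37 and 18.7% ± 1.62. GAP-2/3 was therefore lowest in the share of Igfbp5 and highest in that of Igfbp6. These shares were not tested.

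**Figure D3:**
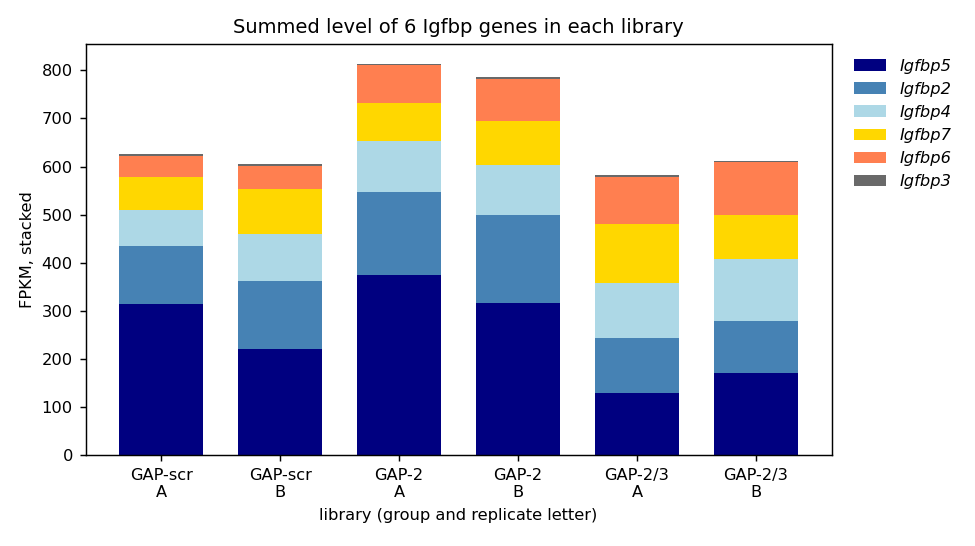
Summed FPKM of the 6 IGF binding proteins in each of the 6 libraries, stacked by gene from 0. The Igfbp5 part is smallest in the GAP-2/3 libraries, at 129 and 171 FPKM, and the Igfbp6 part is smallest in the GAP-scr libraries, at 44.4 and 48.1 FPKM.

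Of 6 listed ligands, 2 were in the table and 1 was tested. Igf2, which binds Igf1r and Igf2r as well as the binding proteins, was at 533 and 441 FPKM in GAP-scr, 321 and 321 in GAP-2, and 254 and 272 in GAP-2/3. It fell in both arms without overlap, by 0.59 ± 0.12 on the log2 scale in GAP-2 (limma adjusted p = 0.00727) and 0.88 ± 0.12 in GAP-2/3 (limma adjusted p = 0.000298). The GAP-2 call was lost without GAP-2 A, without GAP-2 B and without both Rn45s-rich libraries, with adjusted p up to 0.0554. Per FPKM of Igf2, the binding proteins summed to 1.18 and 1.37 FPKM in GAP-scr, 2.54 and 2.44 in GAP-2, and 2.29 and 2.25 in GAP-2/3. The ratio was higher in all 4 treated libraries. Igf1 is not analysed here. Insl6, a relaxin-like peptide, averaged 0.594, 0.914 and 1.24 FPKM and was below the level needed for testing.

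Of 8 other receptors and binding proteins of the family, 2 were in the table. Insr, the insulin receptor, which forms hybrids with Igf1r, averaged 6.29 ± 0.126 (SD, n = 2), 5.83 ± 0.0393 and 6.44 ± 0.573 FPKM in GAP-scr, GAP-2 and GAP-2/3, with no call and a direction in GAP-2/3 that flipped under both other scalings. Its ratio to Igf1r was 0.991 and 0.966 in GAP-scr, 1.33 and 1.42 in GAP-2, and 1.63 and 1.79 in GAP-2/3, so the 3 groups were separate. Kazald1, which is related to the binding proteins in its first domain, averaged 1.38 ± 0.248, 1.49 ± 0.259 and 2.76 ± 0.853 FPKM. It rose in GAP-2/3, by 0.64 ± 0.16 (limma adjusted p = 0.0105), a call lost without GAP-2/3 A and under quantile normalization (log2 change without GAP-2/3 A 0.41, adjusted p up to 0.138). Among 3 of 6 CCN genes in the table, which share that domain, Ctgf fell in GAP-2. Its level was 38.9 ± 15.8 FPKM in GAP-scr, then 17.9 ± 1.64 and 27.9 ± 1.49 in GAP-2 and GAP-2/3, a log2 change of -1.03 ± 0.21 in GAP-2 (limma adjusted p = 0.00788) and -0.41 ± 0.21 in GAP-2/3 (limma adjusted p = 0.133). Without GAP-scr B the change of Ctgf in GAP-2 was -0.61 (limma adjusted p = 0.01), and in GAP-2/3 it was 0.0074. Ctgf was called lower in GAP-2/3 without GAP-scr A (-0.82, limma adjusted p = 0.00061), without both Rn45s-rich libraries (-0.82, 1.16e-05) and with the letter as a replicate block (0.0325). Cyr61 and Wisp1 were not called in any comparison, at 83.2 to 88.2 and 92.3 to 102 FPKM as group means. Igf2bp2, which binds Igf2 mRNA rather than IGF, was 1 of 3 such genes in the table and fell in GAP-2/3, by 0.37 ± 0.11 (limma adjusted p = 0.0242), a call lost in 6 of 17 alternatives, among them without GAP-scr A, GAP-2 A, GAP-2 B or GAP-2/3 A (adjusted p up to 0.142).

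Of 19 listed proteases that cut IGF binding proteins and inhibitors of such proteases, 16 were tested: 4 rose and 1 fell in GAP-2, 5 rose and 3 fell in GAP-2/3, and 2 rose and 3 fell between the arms. Of all genes, 14.6%, 39.3% and 10.1% were called in these comparisons. Their median log2 change was 0.08 and 0.12 in GAP-2 and GAP-2/3, beside 0.07 and 0.13 over all genes. Timp3, a metalloprotease inhibitor, averaged 18.3 ± 0.300 FPKM in GAP-scr, then 49.7 ± 8.12 and 28.3 ± 3.66 in GAP-2 and GAP-2/3. Timp3 rose by 1.38 ± 0.13 in GAP-2 (limma adjusted p = 8.21e-05) and by 0.60 ± 0.13 in GAP-2/3 (limma adjusted p = 0.00579), with a difference between the arms of -0.79 ± 0.13 (limma adjusted p = 0.00406). Leaving out GAP-2/3 B ended its GAP-2/3 call and leaving out GAP-2/3 A the call between the arms (adjusted p up to 0.0660 and 0.0997).

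Serpine2, a serine protease inhibitor, rose in both arms to like levels, from 39.6 ± 3.22 FPKM to 69.5 ± 4.06 and 67.6 ± 0.971 (0.80 and 0.76, limma adjusted p = 0.000947 and 0.000494). Plat, tissue plasminogen activator, averaged 22.2 FPKM in GAP-scr and 28.2 in GAP-2, and rose in GAP-2/3, to 35.1 (0.64, limma adjusted p = 0.00207). Adam12, a protease of IGFBP3 and IGFBP5, fell from 9.29 FPKM to 6.61 and 6.31 (-0.44 and -0.50, limma adjusted p = 0.0346 and 0.00856). Leaving out any library but GAP-scr A ended its GAP-2 call (adjusted p up to 0.237) and its GAP-2/3 call without GAP-2/3 A (0.0849). Adamts1, a metalloprotease of the matrix, averaged 30.7 FPKM in GAP-scr, then 23.4 and 15.3 in GAP-2 and GAP-2/3, and fell in GAP-2/3 (-0.94 ± 0.16, limma adjusted p = 0.00141). Htra1, a serine protease that cuts IGF binding proteins, was chosen after its values were seen. As for Igfbp2, its highest libraries were those of GAP-2. It was at 28.2 and 30.0 FPKM in GAP-scr, 49.6 and 52.3 in GAP-2, and 28.2 and 32.6 in GAP-2/3. Htra3 and Timp1, of the same list and also picked after their values were seen, went the other way between the arms. Group means in GAP-scr, GAP-2 and GAP-2/3 were 21.1, 13.8 and 23.7 FPKM for Htra3 and 432, 354 and 621 for Timp1. Between the arms they differed by 0.75 ± 0.19 and 0.82 ± 0.19 (limma adjusted p = 0.031 and 0.0194). Htra3 in GAP-2/3 and Timp1 in GAP-2 overlapped the GAP-scr libraries, and neither gene was refitted in the alternatives. Htra1 rose in GAP-2, by 0.79 ± 0.11 (limma adjusted p = 0.00125), had a change of 0.06 in GAP-2/3 (limma adjusted p = 0.703) that turned negative under both other scalings, and differed between the arms by -0.73 ± 0.11 (limma adjusted p = 0.00212, and 0.0579 without GAP-2/3 A).

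Of 29 listed adaptors and kinases downstream of Igf1r, 27 were tested: 4 rose and 1 fell in GAP-2, 5 rose and 5 fell in GAP-2/3, and 3 rose between the arms. These counts stand beside 14.6%, 39.3% and 10.1% of all genes called in the same comparisons and are near them. Their median log2 change was -0.0063 and -0.03 in GAP-2 and GAP-2/3, beside 0.07 and 0.13 over all genes. Grb14, an adaptor that inhibits insulin receptor signalling, was at 0.633 and 0.499 FPKM in GAP-scr, 2.02 and 1.78 in GAP-2, and 3.04 and 3.10 in GAP-2/3. Grb14 rose by 0.89 ± 0.12 in GAP-2 (limma adjusted p = 0.00102) and 1.38 ± 0.12 in GAP-2/3 (limma adjusted p = 1.66e-05) at a low level throughout, and by 1.59 and 2.26 with a pseudocount of 0.1. Irs1, the docking protein of the receptor, averaged 14.3 ± 1.67, 19.6 ± 0.441 and 28.6 ± 2.23 FPKM, and rose by 0.44 ± 0.12 and 0.96 ± 0.12 (limma adjusted p = 0.0316 and 0.000199). The arms differed in Irs1 by 0.52 ± 0.12 (limma adjusted p = 0.0198). The GAP-2 call of Irs1 was lost in 8 of 17 alternatives, both other scalings and the loss of any library but GAP-scr A among them (adjusted p up to 0.182), and its call between the arms without any 1 of the 4 treated libraries (up to 0.156).

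Pik3r1, the regulatory subunit of PI3 kinase, rose from 8.74 ± 0.915 FPKM to 16.6 ± 1.57 and 14.3 ± 2.10 (0.85 and 0.65, limma adjusted p = 0.00227 and 0.00374). Socs3, an inhibitor of cytokine and insulin signalling, rose from 20.3 FPKM to 30.4 and 31.5 (0.56 and 0.61, limma adjusted p = 0.00874 and 0.00227). Its GAP-2 call was lost without GAP-2 A, without GAP-2 B and without both Rn45s-rich libraries (adjusted p up to 0.0727). Akt1, a kinase downstream of PI3 kinase, was at 85.2 and 86.5 FPKM in GAP-scr, 74.2 and 68.4 in GAP-2, and 58.9 and 66.8 in GAP-2/3, without overlap between groups. Akt1 fell in GAP-2/3 by 0.45 ± 0.11 (limma adjusted p = 0.00834, and 0.0879 without GAP-2/3 A), and its change in GAP-2 was -0.27 ± 0.11 (limma adjusted p = 0.119).

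Genes listed as partners of Igf2r in mannose 6-phosphate sorting were all in the table, 19 of 19. This list is wider than the sorting machinery, with Tgfb1, Plaur and Lrp1 also in it. In GAP-2, 2 rose and 1 fell; in GAP-2/3, 6 rose and 4 fell; between the arms 1 fell. The shares of all genes called were 14.6%, 39.3% and 10.1%. The median log2 change was 0.14 and 0.16 in GAP-2 and GAP-2/3, beside 0.07 and 0.13 over all genes. Lrp1, a large endocytic receptor listed for its part in uptake, was at 75.9 and 81.9 FPKM in GAP-scr, 60.2 and 49.8 in GAP-2, and 30.8 and 36.0 in GAP-2/3. Lrp1 fell by 0.52 ± 0.13 in GAP-2 (limma adjusted p = 0.0198) and 1.22 ± 0.13 in GAP-2/3 (limma adjusted p = 4.91e-05), and differed by -0.70 ± 0.13 between the arms (limma adjusted p = 0.00545). Its GAP-2 call was lost without GAP-scr B and without GAP-2 B (adjusted p up to 0.244), and the call between the arms without GAP-2 A and without GAP-2/3 A (up to 0.112). Snx2 and Vps35, of the machinery that returns the receptor from endosomes to the Golgi, rose in both arms. Snx2 averaged 41.1 FPKM, then 55.9 and 60.5 (0.43 and 0.54, limma adjusted p = 0.0224 and 0.00298), and Vps35 61.6 FPKM, then 87.3 and 90.03 (0.50 and 0.54, limma adjusted p = 0.0201 and 0.00565). Both lost the GAP-2 call under scaling to one median and without GAP-2 A or B (adjusted p up to 0.164 and 0.179), Vps35 also without GAP-scr B, and Vps35 lost that of GAP-2/3 without GAP-2/3 A (0.0810). Besides Lrp1, those that fell in GAP-2/3 were Gga1, Gga2 and Gga3 (-0.35, -0.33 and -0.37, limma adjusted p = 0.033, 0.046 and 0.029). These Gga genes were picked after their values were seen and not refitted in the alternatives. Ap1g1, of the AP-1 clathrin adaptor, and Gnptab rose in GAP-2/3 by 0.40 and 0.43 (limma adjusted p = 0.0137 and 0.0179). Gnptab encodes a subunit of the enzyme that makes the mannose 6-phosphate tag. Scaling to one median ended the call of Ap1g1, quantile normalization that of Gnptab, leaving out GAP-2/3 A or B those of both, and leaving out GAP-scr B that of Gnptab (adjusted p up to 0.0691 and 0.105).

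**Figure D4:**
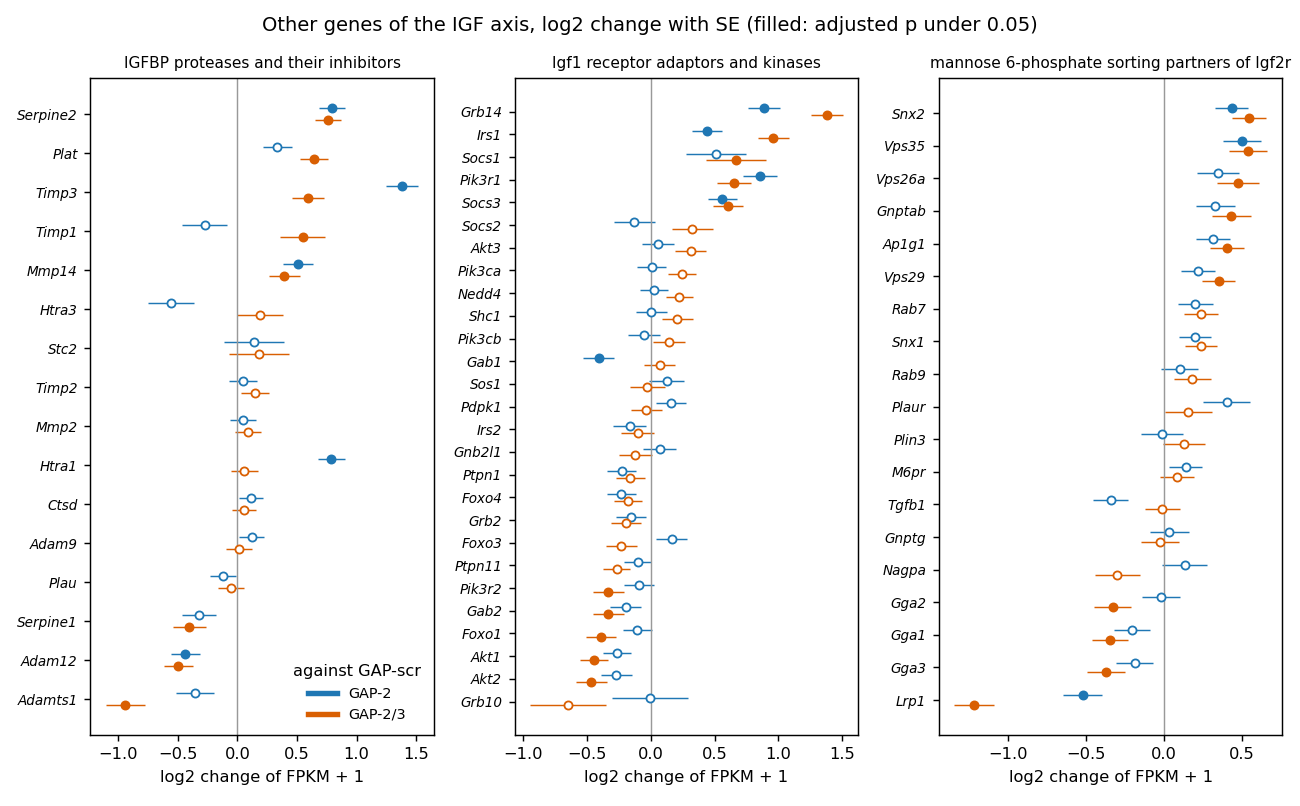
Log2 change of FPKM + 1 with its standard error against GAP-scr, in GAP-2 and GAP-2/3, for the tested proteases and inhibitors (16 genes), Igf1r adaptors and kinases (27 genes) and sorting partners of Igf2r (19 genes), with filled points where the adjusted p is under 0.05. In each panel filled points lie on both sides of 0, with Timp3 in GAP-2, Grb14 in GAP-2/3 and Lrp1 in GAP-2/3 farthest out.

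The genes most like each member were those with the highest Pearson correlation of log2(FPKM + 1) over the 6 libraries, among 2296 genes whose mean reached 5 FPKM, with a standard deviation of at least 0.25. With 6 libraries in 3 pairs, many genes reach a high correlation, and these are descriptions. Igf1r was most like Obsl1 (r = 0.994), Dusp13 (0.991) and Mast3 (0.991), and Igf2r most like Eri3, Nfix and Pnpla2 (each 0.997). For Igfbp5 they were Adam19 (0.996), Aspscr1 (0.992) and Slc6a8 (0.989), and for Igfbp2 Slc25a33 (0.992), Cth (0.988) and Bcat1 (0.986). Igfbp6 was matched by Lrp12 (0.999), Praf2 (0.999) and Aox1 (0.996), Igfbp4 by Hscb (0.979), Sec14l2 (0.976) and Retsat (0.974), Igfbp3 by Ttc7b (0.979), Nrbp2 (0.978) and Mybph (0.967), and Igfbp7 by Sap30l (0.987), Ndufv2 (0.987) and Fam174a (0.974). Among the members, Igf1r and Igf2r correlated at 0.95, Igf1r and Igfbp6 at -0.99, and Igfbp2 and Igfbp5 at 0.74.

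No member lay under a ChIRP peak. The authors' list holds 798 merged peaks from 1 even-probe and 1 odd-probe library, so there is no replicate check. Of the 8 genes, 0 overlapped a peak, 0 had one within 10 kb and 0 within 100 kb, beside 1.63%, 2.26% and 8.13% of 21631 RefSeq protein-coding genes. Within 1 Mb, 6 of 8 had a peak, beside 46.8%. Igfbp2 and Igfbp5, neighbours on chromosome 1, had the same nearest peak, at chr1:73796422-73796528, so it is counted for both. The shortest distance was 217.8 kb, from Igfbp6 to a peak at chr15:102367296-102367403. The other distances were 325.6 kb for Igfbp4, 563.3 kb for Igfbp7, 578.9 kb for Igf1r, 921.6 kb for Igfbp5, 943.9 kb for Igfbp2, 1383 kb for Igfbp3 and 1690 kb for Igf2r. The median was 750.2 kb, against 1108 kb over protein-coding genes. The submitters' processing notes name the build mm9, but a peak on chromosome X ends at 170732078, beyond the end of that chromosome in mm9 as generally known, so positions were read as GRCm38. If that reading is wrong, these distances do not hold.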

How the data were processed

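FPKM per gene, for 11228 genes and 6 RNA-seq libraries, is the unit the authors deposited; the peak list carries a score per peak, also deposited by the authors and not used here. Of the tools in the submitters' processing notes, Bowtie2 and TopHat2 align reads, Cufflinks and Cuffdiff give FPKM, and MACS calls peaks; the notes state neither roles nor versions and name the build mm9. Per the labels' protocols, polyA RNA was made into libraries with a stranded kit. Depth is unknown, and whole reads were not recovered.

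The fit took log2(FPKM + 1) of the 10993 genes whose mean reached 1 FPKM, all 8 members among them, with limma 3.58.1 in R 4.3.3. All 3 groups entered it together with an intensity trend, and p-values were adjusted over all tested genes by the Benjamini-Hochberg method. The fit was also run on simulated data, with equal changes put into both arms and a spread set by level alone. Such data cannot show how far the calls here depend on single libraries. Other values came from pandas 2.3.3 in Python 3.11.15. Promoter sequences and gene positions are RefSeq's, for GRCm38.p6, in which all 8 members were matched.

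The members and gene lists were chosen with earlier results of these data known. The text names all 8 members and, from each other list, the 5 tested genes lowest in p when both arms were averaged, or every tested gene of a list with at most 6. A gene of the adaptor list is not reported here. Htra1, Htra3, Timp1, Gga1, Gga2, Gga3 and the neighbours of Igfbp2 were added after their values were seen. Alternatives changed 1 choice at a time: the pseudocount (0.1), the filter (none, or 5 FPKM), the scaling (one median, or quantiles), the trend, the replicate letter as a block, the libraries left out, the groups fitted, the threshold (0.1) and the peak distance.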

Additional observations from a re-analysis of the deposited data

Results flagged for a closer look

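Igfbp2 and Igfbp5 differed between the gapmer arms when these were compared directly. The log2 difference of GAP-2/3 from GAP-2 was -0.67 for Igfbp2 and -1.21 for Igfbp5, and limma's adjusted p over all tested genes was 0.00377 and 0.00129. The 2 GAP-2 libraries lay above both GAP-scr libraries and the 2 GAP-2/3 libraries below both of them for each gene. Without GAP-2/3 A neither gene was called in this comparison, with adjusted p of 0.0560 and 0.0786.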

How the results depend on the processing

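With 2 libraries a group, many calls rest on single libraries. Leaving out 1 library gave 1 to 6 called members in GAP-2, 2 to 7 in GAP-2/3, 3 to 7 in the mean of both arms and 0 to 2 between the arms. A mean of at least 5 FPKM leaves out Igf1r and Igfbp3 by construction and gave 3 members in GAP-2 and 3 in the mean of both arms. Without both Rn45s-rich libraries those counts were 2 and 3, and fitting only the groups compared gave 3 in GAP-2; the cause was not tested. The wider limit of 1 Mb put a peak near 6 members. No count test was run, since whole reads were not recovered.

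The letters A and B were not taken as pairing the libraries, since the labels do not explain them. Deviations from the group means of libraries with the same letter correlated at 0.36 between GAP-scr and GAP-2. The values were -0.13 and -0.18 in the pairs with GAP-2/3, so these correlations do not settle whether the letters pair the libraries. With the letter as a replicate block, 5, 6, 5 and 2 members were called in GAP-2, GAP-2/3, the mean of both arms and between the arms, Igfbp7 being added in GAP-2/3 (limma adjusted p = 0.0220), and 1955 genes in GAP-2 over all genes. With the GAP-2/3 letters crossed, chosen after the data were seen, the counts were 6, 7, 5 and 2.

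Over all genes, the number called in GAP-2 moved from 1604 to between 504 and 2624 when 1 library was left out, to 937 with only the groups compared and to 2567 at a threshold of 0.1. In GAP-2/3, 4323 fell to 1538 without GAP-2/3 A. In the mean of both arms, 3750 became 2080 without GAP-2/3 A and 2218 without GAP-2 B. Between the arms, 1115 became 195 to 2052 with 1 library left out, 2055 with only the groups compared and 1781 at a threshold of 0.1.

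Alternatives were run for the members, the other genes chosen by rule, and Htra1, but not for the remaining genes named in the text. Among the genes refitted, log2 changes that turned direction were uncalled by limma in the main analysis and are given here. The cause was not tested. Scaling to one median turned Insr (-0.0734), Cyr61 (-0.10) and Htra1 (-0.0545) in GAP-2/3. Quantile normalization turned Insr (-0.11), Cyr61 (-0.0621) and Htra1 (-0.0429) there, and Kazald1 (-0.0564) in GAP-2. Without both Rn45s-rich libraries Igfbp7 turned in GAP-2 (-0.0544) and Cyr61 in GAP-2/3 (-0.14). Leaving out 1 library gave ranges across 0 in GAP-2 for Igfbp7 (-0.15 to 0.30), Kazald1 (-0.0442 to 0.17), Wisp1 (-0.0369 to 0.22), Igf2bp2 (-0.0711 to 0.0018) and Cyr61 (-0.22 to 0.0922). In GAP-2/3 such ranges were found for Insr (-0.0511 to 0.11), Cyr61 (-0.14 to 0.17), Htra1 (-0.0435 to 0.16) and Ctgf (-0.82 to 0.0074). In the mean of both arms they were found for Igfbp2 (-0.0023 to 0.22) and Igfbp5 (-0.47 to 0.0313).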
